A study of Mus musculus with 1 sample.

Results

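The genes examined here encode the ligands and receptors of axon guidance, measured by RNA-seq in 1 control library of mouse ventral midbrain (VM) glia. They were all rows whose symbol belongs to the semaphorins of classes 3 to 7, the plexins, the neuropilins, the ephrins and Eph receptors, the Slit and Robo genes, the netrins, the Unc5 genes or Dcc. The symbol alone decided membership, without a threshold on any value. This gave 70 of 23282 rows. Among the 70, Plxna4os1 is an antisense transcript at the Plxna4 locus and not a guidance gene, which left 35 ligands and 34 receptors.

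The culture was primary mixed glia from the VM of ICR (CD-1) outbred pups aged postnatal day 5, grown in medium with serum and replated once. The labels name no genetic change and call the library Cont. Its column header adds DMSO and also holds the letters mAst, which the labels do not explain, and the labels were followed. The study used DMSO as the vehicle against which the SGK1 inhibitor GSK650394 was compared. No inhibitor-treated library was analysed here, so there is no contrast between groups, no replicate and no error between cultures for any value below. Microglial markers (6 of 6 at 984 to 32619) and astrocyte markers (6 of 6 at 1850 to 17222) were present, as were fibroblast and mural cell markers (6 of 6 at 455 to 26499) and oligodendrocyte lineage markers (6 of 6 at 48 to 16349). Neuronal markers ran from 0 to 124, with Slc17a6 at 0 and Syt1 at 6, and endothelial markers from 0 to 2427, with Tek at 0 and Cldn5 at 3. In such a mixture, few cells with much RNA of a gene and many cells with little cannot be told apart.

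Guidance cues steer growing axons by attraction or repulsion. Most semaphorins signal through plexins, and those of class 3 usually need a neuropilin as coreceptor. Ephrins are held at the cell surface and signal to Eph receptor tyrosine kinases upon contact, Slits are secreted repellents read by Robo receptors, and netrins attract through DCC and repel through UNC5 proteins. The same proteins act in blood vessels, immune cells and glia, and in the midbrain they are known for guiding dopamine axons and commissural axons.

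The deposited number for a gene is called its value here, which is a normalized read count. Because long genes collect more reads, the levels of single genes were compared with each other only per length. The level is the value per kilobase (kb) of annotated exon per 1000000 of the sum of all values (27569507). Detection was set at a minimum value of 10, which is not divided by length, and the median exon length was 6848 bases for guidance genes and 3682 for protein-coding rows. By this measure 62 of the 70 rows (88.6%) were detected, against 67.2% of all rows and 70.7% of protein-coding rows. Of the guidance genes themselves, 33 of 35 ligands and 28 of 34 receptors were detected. The other 8 were not. Epha8, Epha10 and Robo4 were listed at 0, Sema3g and Robo3 had a value of 4, Unc5a 5, Epha6 6 and Ntn5 8.

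Most guidance genes lay below the median detected gene, and their place against all rows depended on the division by length. Their median level over the 70 rows was 0.923, against 1.14 over all rows with a known length and 3.73 over detected rows. Their median value, not divided by length, was 170.5, against 119 over all rows and 469 over detected rows. By level, 17 of the 62 detected members lay above the median of detected rows, a line that by definition splits detected rows evenly. A value of 1000 or more was reached by 14 members (20%) and by 21.5% of all rows, so the members were close to the background. All members together held 0.27% of the summed values. Exons of 18 members overlap another annotated gene, by at most 970 bases, and a read there may have been counted for either gene or for none.

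Most of the signal came from few genes. Plxnb2 alone held 28.2% of the summed level of the 69 guidance genes, the 3 highest genes (Plxnb2, Nrp2 and Sema4d) 44.8%, and the 8 highest 69.8%. Of these 8 genes, 6 were receptors, and receptors held 70.2% of the summed level. Without Plxnb2 they still held 58.4%. These shares use all exons and were not recomputed with other lengths. With coding length, the 3 highest genes were Nrp2 (135.5), Plxnb2 (130.7) and Efna5 (84.6), and Sema4d was at 68.9.

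**Figure D1:**
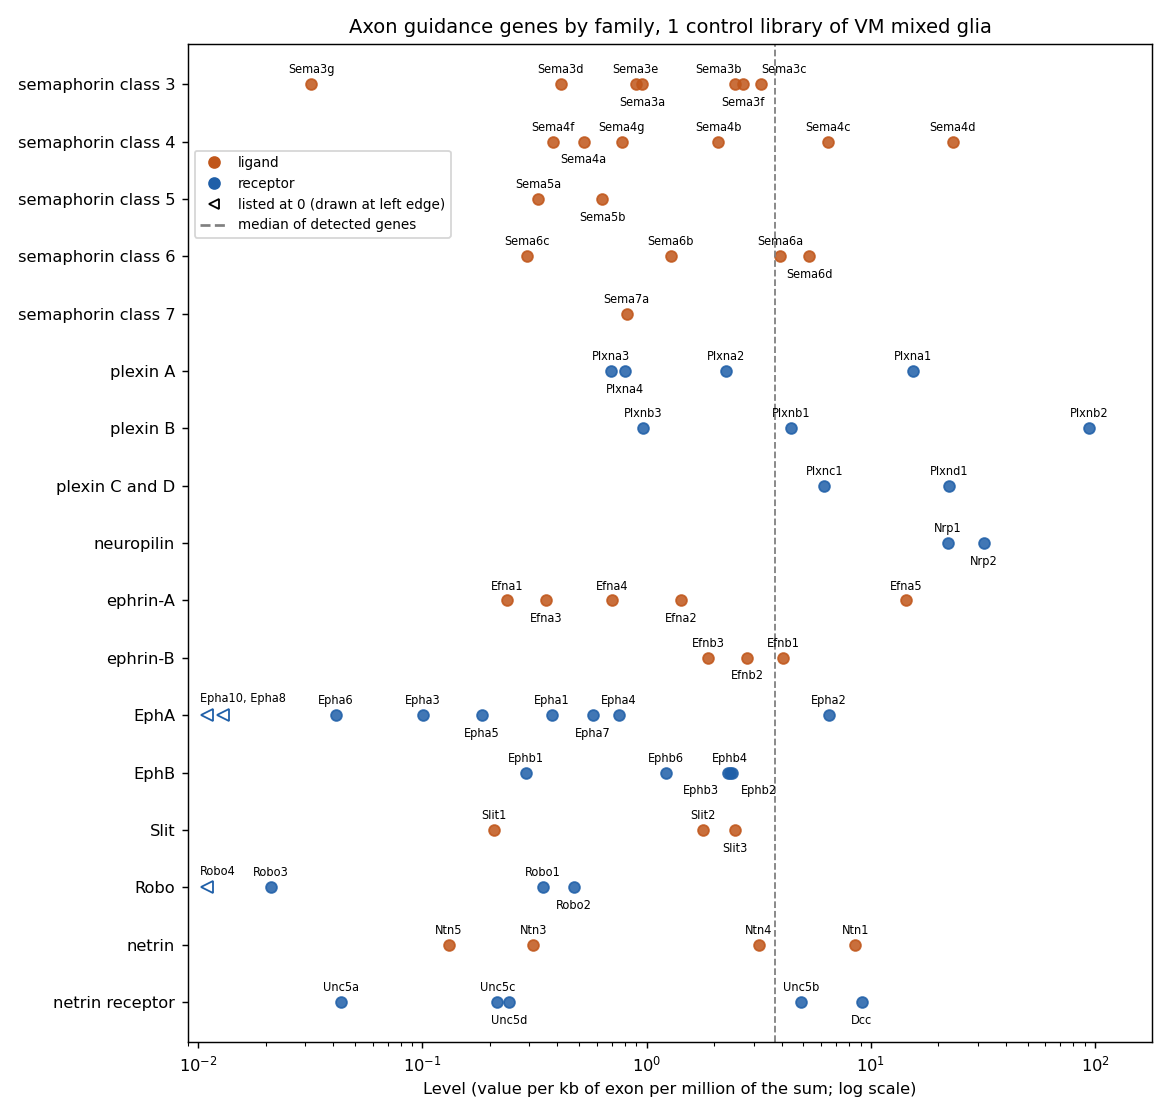
Level of each of the 69 guidance genes in the control library, 1 row per family (x axis, log scale, value per kb of exon per 1000000 of the sum), with ligands in orange, receptors in blue, genes listed at 0 as open triangles at the left edge and the median of detected genes (3.73) as a dashed line. Plxnb2 stands farthest to the right, both neuropilins lie above the line, and the Robo receptors and most EphA receptors lie far below it.

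The sequence before the transcription start was then set beside the levels. RefSeq promoter windows on GRCm38.p6 were matched for 59 of the 69 genes. In the 250 bases before the start, 43 of the 59 (72.9%) held the GC box GGGCGG or its reverse complement CCGCCC, against 45.1% of all protein-coding rows with a window and 57.3% of the detected ones. TATAAA or its reverse complement was found in 2 members (3.39%), against 11.9% of all and 6.83% of detected protein-coding rows. Matches were counted on both strands and could overlap each other. The median ratio of observed to expected CpG was 0.635 in members, 0.573 in all and 0.706 in detected protein-coding rows. The median GC content was 64.8% in members, 56% in all and 59.6% in detected protein-coding rows. The GC box is made of G and C only, and its shares were not compared at equal GC content.

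The box occurred both in high members and in undetected ones. It was found in 11 of 13 members above the median of detected rows, in 26 of 38 detected members below it and in 6 of 8 undetected members (75%). Of all protein-coding rows under the minimum, 15.6% held it. The contrast is shown with the 2 highest genes, Plxnb2 and Nrp2, and with Epha8 and Robo4, which were both at 0. Each is given 5′ to 3′ on the strand of the gene, up to the first annotated exon, with GC boxes in capitals. The stretches are chr15:89180789-89181038 (minus strand), chr1:62703067-62703284 (plus), chr4:136956817-136957066 (minus) and chr9:37401722-37401896 (plus).
Plxnb2: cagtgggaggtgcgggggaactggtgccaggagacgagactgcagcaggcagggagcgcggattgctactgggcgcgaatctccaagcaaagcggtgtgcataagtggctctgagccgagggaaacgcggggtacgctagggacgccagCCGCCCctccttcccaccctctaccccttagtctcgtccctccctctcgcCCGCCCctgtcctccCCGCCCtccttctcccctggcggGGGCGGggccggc
Nrp2: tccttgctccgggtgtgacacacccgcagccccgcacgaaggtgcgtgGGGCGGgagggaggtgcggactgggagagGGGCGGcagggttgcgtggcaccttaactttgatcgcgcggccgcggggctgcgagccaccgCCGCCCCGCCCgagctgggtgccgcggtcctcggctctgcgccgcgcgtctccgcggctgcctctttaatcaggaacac
Epha8: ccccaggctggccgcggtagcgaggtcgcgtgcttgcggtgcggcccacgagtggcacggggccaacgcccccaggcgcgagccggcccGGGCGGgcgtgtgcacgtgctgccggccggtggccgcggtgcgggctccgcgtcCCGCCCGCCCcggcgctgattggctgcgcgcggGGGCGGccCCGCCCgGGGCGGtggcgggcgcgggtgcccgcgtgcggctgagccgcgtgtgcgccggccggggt
Robo4: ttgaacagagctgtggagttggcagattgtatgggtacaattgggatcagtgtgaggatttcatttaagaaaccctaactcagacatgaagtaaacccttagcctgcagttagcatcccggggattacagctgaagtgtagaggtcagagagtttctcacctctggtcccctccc

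The stretches are 250 bases for Plxnb2 and Epha8, 218 for Nrp2 and 175 for Robo4, so they are compared over the full 250 bases before the start. There Plxnb2 held 4 GC boxes and 20 CpG, and Nrp2 held 5 boxes, 4 of them in the stretch shown, and 32 CpG. Epha8, with a value of 0, held 6 boxes and 46 CpG. Robo4, also at 0, held no box and 2 CpG. RefSeq lists 2 windows for Plxnb2, of which the one farthest upstream is shown. Other members also had several windows, up to 4 for Sema4a, and only 1 was used for each. A window can lie away from the annotated gene start. For Robo1 it starts at 72662899, while the gene starts at 72308306. The box counts were not repeated with other windows.

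Plexins were the highest receptor class by summed level over all exons, and each of the 9 was detected. With coding length, both neuropilins together were slightly above the plexins. Plxnb2, the receptor of Sema4c and Sema4d, lies on chromosome 15 (89155549 to 89180788, minus strand) and had a value of 19919. Its level was 93.6, above 96.5% of detected genes. This was 21.2 times the level of Plxnb1, which had a value of 1167 and a level of 4.41, and 97.4 times that of Plxnb3 (value 172, level 0.961). Plxnb2 thus made up 94.6% of the plexin B sum. Its exons overlap no other annotated gene.

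The A plexins were led by 1 gene as well, while plexins C and D were 1 gene each. Plxnd1, the direct receptor of Sema3e, had a value of 4483 and a level of 22.3 (chromosome 6, 115954811 to 115995005). Plxnc1, the receptor of Sema7a, had a value of 1425 and a level of 6.19. Among the A plexins, which transmit class 3 and class 6 semaphorin signals, Plxna1 had a value of 3827 and a level of 15.3, which was 80.3% of the subfamily sum. The level of Plxna2 was 2.26 (value 1070), that of Plxna4 0.800 (value 311) and that of Plxna3 0.690 (value 150). In Plxna1, 970 bases of exon overlap the opposite-strand gene Gm26811. The antisense row Plxna4os1 was at 22.

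Both neuropilins, coreceptors for class 3 semaphorins and for vascular endothelial growth factors, were high. Nrp2 (chromosome 1, 62703285 to 62818695) had a value of 10435 and a level of 31.96, and Nrp1 (chromosome 8, 128358604 to 128503363) a value of 5936 and a level of 22.0. They were the second and the fifth highest guidance genes. Which of the pair was higher depended on the length used. With the longest transcript in place of all exons, Nrp1 had a level of 59.1 and Nrp2 one of 56.3. With coding length, Nrp2 at 135.5 also passed Plxnb2 at 130.7.

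The 20 semaphorin ligands had a lower median level than their receptors, 0.923 against 4.41 for the plexins and 27.0 for the neuropilins. The highest was Sema4d, a class 4 membrane semaphorin also known as CD100 from immune cells. Its value was 4905 and its level 23.2, the third highest of all guidance genes and 40.9% of the semaphorin sum (chromosome 13, 51685529 to 51793747). Sema4c, another class 4 member, had a level of 6.40 (value 811), and 334 bases of its exons overlap an opposite-strand gene. The remaining class 4 genes had levels of 2.09 for Sema4b (value 325), 0.775 for Sema4g (value 185), 0.523 for Sema4a (value 78) and 0.384 for Sema4f (value 56).

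Class 6 semaphorins are transmembrane ligands of the A plexins. Sema6d had a value of 1546 and a level of 5.31, and Sema6a a value of 955 and a level of 3.95. These genes were, with Sema4d and Sema4c, the only semaphorins above the median of detected rows. Sema6b (value 140, level 1.28) and Sema6c (value 48, level 0.293) were below it.

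The secreted class 3 semaphorins, the classical axon repellents, were all under that median. Sema3c was the highest, with a value of 637 and a level of 3.24. Sema3f had a value of 387 (level 2.70) and Sema3b a value of 327 (level 2.48). Sema3a, the best known member, had a value of 364 and a level of 0.952, Sema3e a value of 229 and a level of 0.895, and Sema3d a value of 98 and a level of 0.414. Sema3g, at 4, was the semaphorin that was not detected. Class 5 was low, with Sema5b at a value of 124 (level 0.635) and Sema5a at 169 (level 0.328), an order that turned with coding length and with no division by length. Sema7a, which is anchored to the membrane by a lipid, had a value of 74 and a level of 0.814.

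In the ephrin system the ligands had the higher summed level, 25.8 against 17.1, except when values were not divided by length, and Efna5 alone held 55.6% of the ligand sum. Efna5, a lipid-anchored ephrin known for repelling axons in topographic maps, had a value of 1595 and a level of 14.3 (chromosome 17, 62604184 to 62881317). That was 84.0% of the ephrin-A sum and 10.0 times the level of Efna2 (value 84, level 1.43). Efna4 had a value of 31, Efna3 24 and Efna1 12, with levels of 0.703, 0.358 and 0.238. The transmembrane B ephrins were more even, with Efnb1 at a level of 4.07 (value 387), Efnb2 at 2.80 (value 529) and Efnb3 at 1.88 (value 165). With coding length, or with no division, Efnb2 was above Efnb1.

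Of the 14 Eph receptors, 11 were detected, and Epha2 was the only one above the median of detected rows. Its value was 838 and its level 6.50, which was 76.2% of the EphA sum. The other detected A receptors were Epha4 (value 167, level 0.752), Epha7 (value 157, level 0.576), Epha1 (value 41, level 0.379), Epha5 (value 85, level 0.184) and Epha3 (value 24, level 0.10). Exons of Epha1 overlap the opposite-strand gene Zyx over 236 bases. Epha6 had a value of 6, and Epha8 and Epha10 were at 0.

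All 5 EphB receptors were detected, and 3 of them had nearly the same level. Ephb2 had a level of 2.40 (value 835), Ephb4 2.35 (value 300) and Ephb3 2.31 (value 423). Ephb4 is known as the partner of Efnb2 in veins and arteries. With the longest transcript, Ephb3 at 3.23 was above Ephb2 at 2.78. Ephb6, whose kinase domain is inactive, had a level of 1.22 (value 127) and Ephb1 one of 0.290 (value 56). The median level of the EphB genes was 2.31, and that of the EphA genes 0.184, although their sums were close at 8.57 and 8.54.

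The Slit system was the lowest of the 4, with 1.60% of the summed guidance level. The summed level of its ligands, 4.48, was above that of its receptors, 0.838, although Slit1 was below Robo1 and Robo2. Slit2 had a value of 1251 and a level of 1.78, Slit3 a value of 416 and a level of 2.49, and Slit1 a value of 34 and a level of 0.208. Annotated exons of Slit2 cover 25433 bases, the longest of all the guidance genes, and with each of the other lengths, or with no division, Slit2 was above Slit3. Robo2 had a value of 221 and a level of 0.472, and Robo1 a value of 157 and a level of 0.345. Robo3, a receptor of commissural neurons, was at 4. Robo4, known as the endothelial member, was at 0, as was the endothelial marker Tek, while Kdr was at 119 and Flt1 at 2427.

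In the netrin system, ligand and receptor were both present. Ntn1, the classical floor plate attractant, had a value of 1476 and a level of 8.53 (chromosome 11, 68209364 to 68400823), and Ntn4, a netrin of basement membranes, a value of 326 and a level of 3.16. Ntn3 had a value of 44 and a level of 0.312. Ntn5 was at 8, and 519 bases of its exons overlap Sec1 on the opposite strand.

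Dcc, the receptor through which netrin attracts axons, had a value of 3306 and a level of 9.10, above 70.3% of detected genes and eighth among the guidance genes (chromosome 18, 71253634 to 72351069). This was 1.07 times the level of Ntn1 and 1.87 times that of Unc5b (value 840, level 4.87). Dcc is best known from neurons and their precursors, and the 6 neuronal markers ranged from 0 to 124 in value and up to 2.41 in level. Dcc exons overlap no other annotated gene. Whether neurons contributed to its value was not tested. The other repulsive netrin receptors were low, with Unc5c at a value of 114 (level 0.216), Unc5d at 62 (level 0.244) and Unc5a at 5. Neo1, a receptor related to Dcc, had a value of 695 and a level of 2.89.

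Summed over its genes, the semaphorin system held 77.5% of the guidance level, the ephrin system 12.9%, the netrin system 8.02% and the Slit system 1.60%. Semaphorin receptors summed to 200.5 against 56.7 for the ligands, so receptors held 78.0% of that system. The share was 65.4% without Plxnb2. In the Slit system receptors held 15.8%, and 29.6% when Slit3 was left out. In the netrin system they held 54.4%, which fell to 30.7% when Dcc was left out. In the ephrin system they held 39.8%, and 59.9% when Efna5 was left out. The ephrin share was also the only one that crossed 50% with the length used, since without division by length it was 52.0%.

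**Figure D2:**
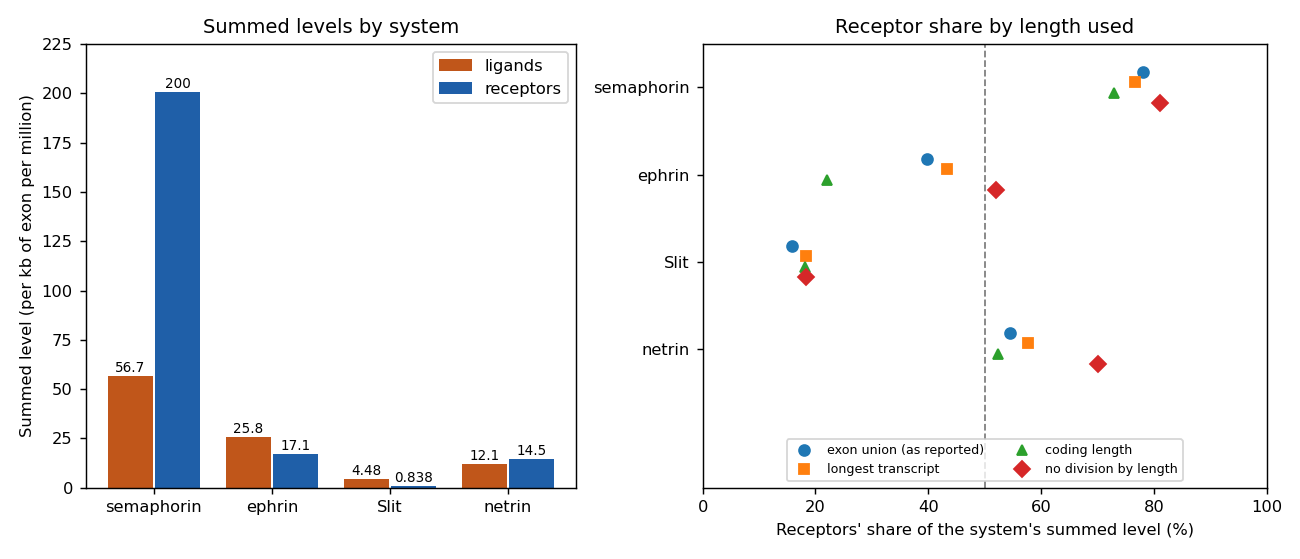
Left, summed level of ligands (orange) and receptors (blue) in each guidance system (value per kb of exon per 1000000 of the sum), and right, share of the summed level held by receptors (x axis, percent) with 4 ways of treating gene length. Receptors exceed ligands in the semaphorin system (78.0%) and are below them in the Slit system (15.8%) for each length, while the ephrin points lie on both sides of the dashed 50% line.

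Ligands and receptors were next set side by side in 34 pairs known to bind or signal together. Both partners were detected in 33 pairs, the exception being Ntn1 with Unc5a. Of the 8 undetected guidance genes, only Unc5a was in a listed pair, and 88.4% of all guidance genes were detected. This count therefore follows largely from which pairs were listed. Both were above the median of detected rows in 6 pairs, which were Sema4c with Plxnb2, Sema4d with Plxnb1 and with Plxnb2, Sema6d with Plxna1, and Ntn1 with Dcc and with Unc5b. The receptor had the higher level in 18 pairs and the ligand in 16. These counts also depend on which pairs were listed. Efna5 (level 14.3) and Epha2 (level 6.50) were both above the median of detected rows but were not listed together. The level of Plxnb2 was 4.04 times that of Sema4d and 14.6 times that of Sema4c. That of Plxnd1 was 24.9 times that of Sema3e, and that of Nrp1 23.1 times that of Sema3a. In the opposite direction, the receptor level was 0.0524 times the ligand level for Efna5 with Epha4 and 0.193 times for Slit2 with Robo1. Over all pairs, the ratio of receptor to ligand level ran from 0.0051 (Ntn1 with Unc5a) to 42.6 (Sema4a with Plxnd1). The library does not show whether partners were made by the same or by different cells.

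**Figure D3:**
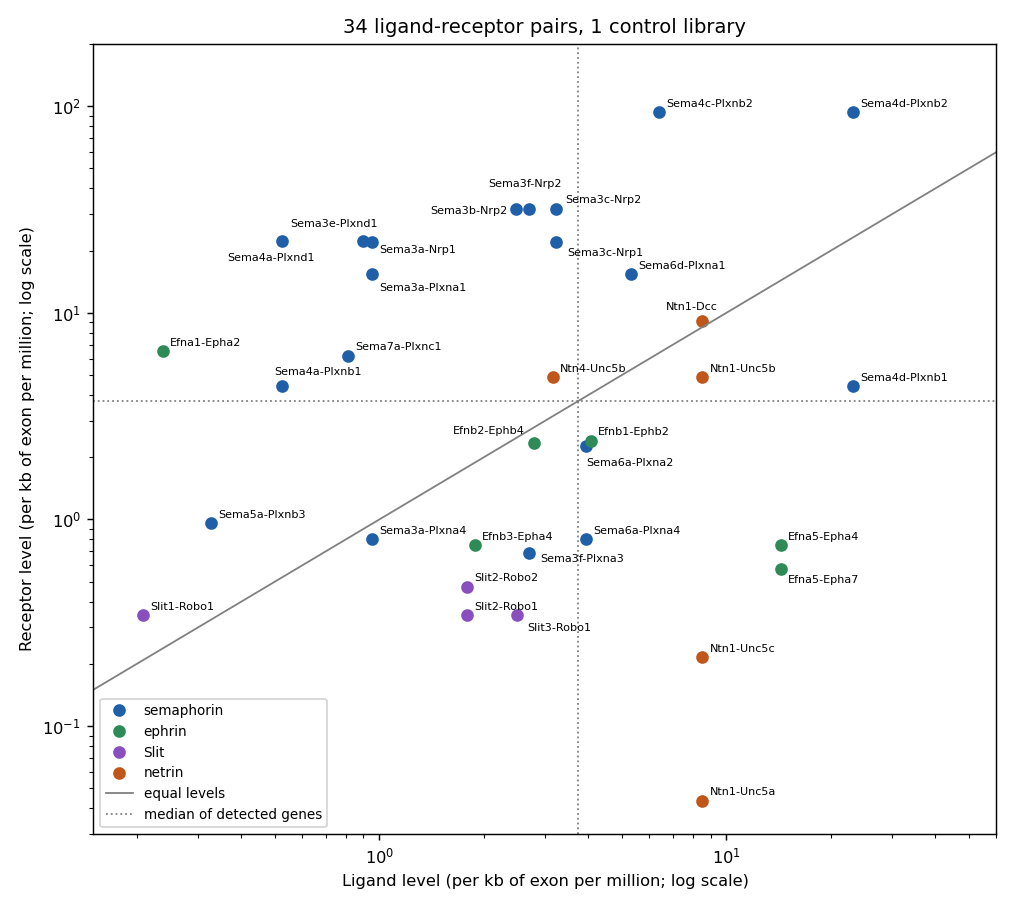
Level of the receptor (y axis) against that of the ligand (x axis) for 34 pairs, both in value per kb of exon per 1000000 of the sum on log scales, coloured by system, with equal levels as a solid line and the median of detected genes (3.73) as dotted lines. Class 3 semaphorins lie mostly above the line with neuropilins and Plxnd1, Efna5 and the Slit2 and Slit3 pairs lie below it, and 6 pairs fall in the upper right field.

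The pathways behind these receptors were described with 91 further genes grouped by role. Of these, 90 were detected, against 67.2% of all rows and 70.7% of protein-coding rows. The median of detected rows (3.73) was exceeded by 47. By definition it splits detected rows evenly, so this count was close to that of detected rows in general. The median level of the 91 genes was 4.38. Of 14 actin effectors, which carry guidance signals to the cytoskeleton, 9 were above that of detected rows. Among them, the filament-severing Cfl1 had a value of 37225 and a level of 474.8 and Vasp, which promotes filament growth, a value of 5832 and a level of 80.8. Ablim3, an actin-binding protein, was lowest, at a value of 15 and a level of 0.120.

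Proteases that shed guidance proteins from the surface or cleave precursor proteins followed. All 4 were above the median of detected rows, led by Mmp14 (value 6051, level 36.8) and Adam10 (value 4875, level 36.0), the latter known for cleaving ephrins. Furin, which cleaves precursor proteins, was lowest at a level of 17.4 (value 4404), and 118 bases of its exons overlap an opposite-strand gene. Of 15 cytoplasmic kinases and adaptors, 11 were above the median. Grb2 had a level of 47.5 and Gipc1, which binds the tail of neuropilin-1, one of 35.0, and Yes1 was lowest at 0.884. Of 9 collapsin response mediators and MICAL genes, 4 were above it, with Dpysl2 at 17.5 and Dpysl3 at 12.4, while Crmp1, a neuronal member, was at 0.165 (value 32). Of 20 GTPase regulators, 8 were above it, with Rasa1 at 15.9 and Farp1 at 7.77, and Kalrn lowest at 0.256. The Slit effectors were uneven, with Srgap2 at a level of 6.40, Srgap3 at 4.46 and Srgap1 at 0.520.

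Surface molecules outside the chosen families were listed as well. Of 11 other ligands, each was detected and 1 was above the median of detected rows. This was Shh, a floor plate morphogen, at a value of 320 and a level of 4.08. Opposite-strand genes overlap 807 bases of its exons. Rgma, a Neo1 ligand, had a value of 535 and a level of 3.50, and Reln was lowest at 0.165. Of 18 other receptors and adhesion coreceptors, 10 were above the median. Sdc3, a heparan sulphate proteoglycan, had a value of 8152 and a level of 49.4, and Plxdc2, a plexin-domain protein, a value of 8369 and a level of 43.7. Dscaml1, a neuronal adhesion molecule, was the 1 gene of the 91 that was not detected, at a value of 7.

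**Figure D4:**
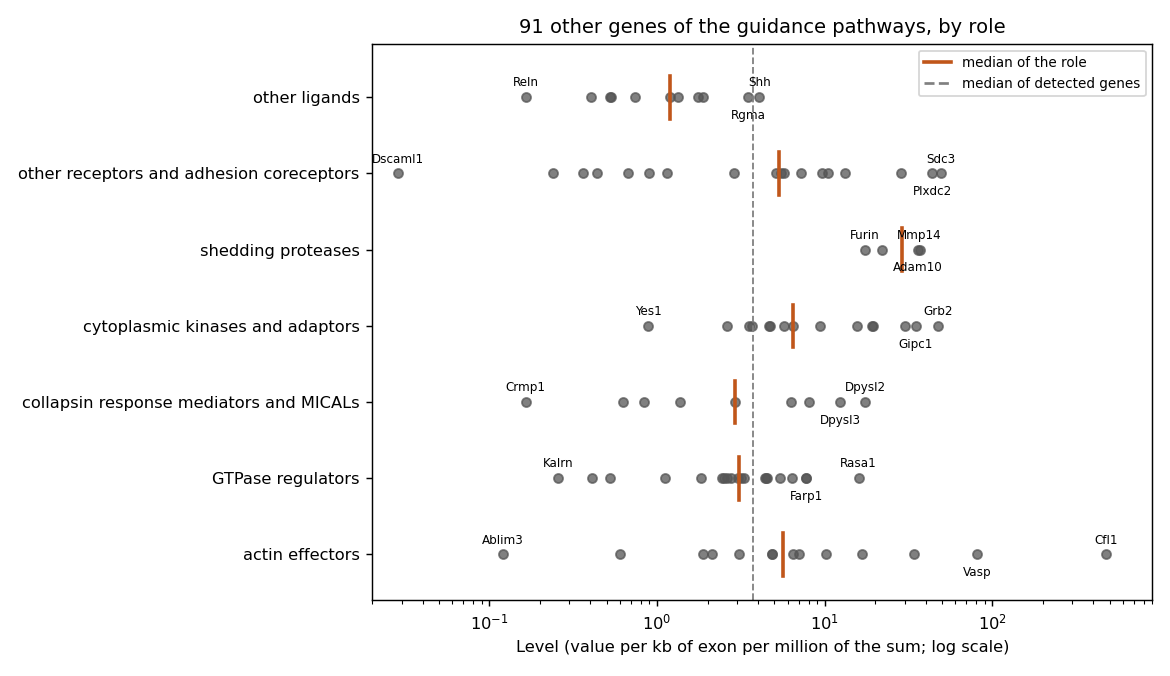
Levels of 91 other genes of the guidance pathways by role (x axis, log scale, value per kb of exon per 1000000 of the sum), with genes as points, the median of each role as an orange bar, the median of detected genes (3.73) as a dashed line, and the highest, second highest and lowest gene of each role named. All 4 proteases lie to the right of the line, and 10 of the 11 other ligands to its left.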

How the data were processed

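Total RNA was isolated using Trizol, and 1 library was built with a SMARTer kit. As the study's methods state, the authors trimmed reads at a quality score of 20, mapped reads to GRCm38/mm10 with STAR and counted reads on exons of NCBI RefSeq genes with HTSeq-count. The submitters' processing notes name TopHat and edgeR instead, without a role. The deposited values are whole numbers described as normalized read counts. The study's methods also name FPKM, a measure already divided by exon length, but the deposited values are not described as such. They were taken as not yet divided by length, which was not tested. How the authors normalized the deposited values was not given in the sources used here. These values were therefore treated as a score, not as raw counts. No confidence interval or detection floor was therefore computed, and the depth in reads is unknown. Strand setting and treatment of multi-mapped reads were also not given, so reads of overlapping or closely related genes can be misassigned.

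Each value was divided by exon length (union of GENCODE M21 exons, GRCm38), found by symbol or older RefSeq symbol for 22786 of 23282 rows (97.9%), and by the sum of values in units of 1000000. No test was possible with 1 library. Alternatives were other lengths, minima and totals. All lengths came from GENCODE, while the study states counting on RefSeq exons. The exons counted may therefore differ from the lengths used, and the alternatives do not cover this. The scripts were tested on simulated data. Families, roles, pathway genes, markers and pairs were listed from general knowledge, and the members and lists were chosen with earlier results of these data known. Every member was named. In the pathway list the 2 highest, the lowest and undetected genes of each role were named, and Srgap1, Srgap2, Srgap3, Neo1 and the marker genes Kdr and Flt1 were added after their values were seen. Some genes of that list are not reported here. Python 3.11.15, numpy 2.4.6, pandas 2.3.3 and matplotlib 3.10.9 were used. Promoter windows were not matched for Sema3b, Sema3f, Sema6a, Plxna1, Plxna4, Efnb3, Slit1, Ntn1, Dcc and Unc5d.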

Additional observations from a re-analysis of the deposited data

How the results depend on the processing

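With 1 library no replicate could be left out, and no paired analysis was possible because there is no second group. A value was taken as unmoved within a factor of 1.5. Of the recomputed values, 69 were unmoved, 35 moved and 1 crossed to the other side. Detected members numbered 67 at a minimum of 1 or 3, where 78.2% and 73.9% of all rows were kept, 45 at 100 (51.6%), and 48 among members with no exon overlap. The share of the sum held by members ran from 0.27% to 0.312% with other totals. The median level was 2.05 with coding length, and between 0.952 and 1.35 under the other alternatives, of which the ones without overlapping members and without the antisense transcript were chosen after seeing the data.

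Shorter lengths raise every level, and the median of protein-coding rows itself moved from 1.48 to 1.90 with the longest transcript and 4.31 with coding length. With the longest transcript the family medians that moved were semaphorin class 3 2.23, semaphorin class 4 2.23, semaphorin class 5 0.768, neuropilin 57.7, EphA 0.421, Slit 2.89, Robo 0.391, netrin receptor 0.429. With coding length they were semaphorin class 3 5.28, semaphorin class 4 3.72, semaphorin class 5 1.62, semaphorin class 6 6.46, semaphorin class 7 1.35, plexin A 4.41, plexin B 6.66, neuropilin 107, ephrin-A 1.82, ephrin-B 13.6, EphA 0.507, EphB 3.64, Slit 3.3, Robo 0.603, netrin 3.6, netrin receptor 1.45. The receptor share of the ephrin system was 22.1% with coding length and, reversed, 52.0% without division by length. In the semaphorin, Slit and netrin systems receptors stayed on the same side of 50% with each length, at 72.9% to 81.0%, 15.8% to 18.3% and 52.4% to 70.0%. The leading gene of a family was replaced in 9 of 48 cases, in which Sema5b, Nrp2, Efnb1, Ephb2 or Slit3 became second. The unknown normalization and the lack of a replicate limit every value to this library.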

Other observations

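Several guidance genes are neighbours in the genome, and their values are given side by side. Among members less than 1000000 bases apart (GRCm38), Efna1, Efna3 and Efna4 lie with Sema4a in 902.1 kb of chromosome 3, and these 4 had values of 12 to 78. Robo3 and Robo4 lie within 31.4 kb of chromosome 9 and were at 4 and 0. Sema3b and Sema3f lie within 112.8 kb of chromosome 9, with levels of 2.48 and 2.70. Sema3a, Sema3d and Sema3e lie on chromosome 5 (12383385 to 14256689) with levels of 0.414 to 0.952, and Robo1 and Robo2 on chromosome 16 with levels of 0.345 and 0.472. Plxna3 and Plxnb3 lie within 587.6 kb of chromosome X at levels of 0.690 and 0.961. Ephb2 and Epha8 lie within 309.3 kb of chromosome 4, with values of 835 and 0, and Ephb6 and Epha1 on chromosome 6, with levels of 1.22 and 0.379. These are 8 neighbour groups in 1 library, grouped after their values were known.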
